A study of Mus musculus with 4 samples.

Results

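The heat shock and unfolded protein response genes are a list of 40 genes that help proteins fold or respond when folding fails. Their rows were taken from the deposited expression table by gene symbol, though the list was chosen with earlier results of these data known. The table has 19354 genes. Rows were found for 38 of the 40 members, and the expression of Hspb1 and Chac1 was not analysed here. The list was read as 2 heat shock factors, 11 cytosolic chaperones, 3 mitochondrial chaperones, 10 endoplasmic reticulum (ER) chaperones, 4 genes of ER-associated degradation, 4 genes for the ER stress sensors and XBP1, and 6 genes of the ATF4 arm.

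The RNA was from hematopoietic stem cells (HSCs) of mice that carried Mx1-Cre and were either Id2+/+ or Id2 fl/fl. All mice received pIpC, which switches on Cre through the interferon-inducible Mx1 promoter, so both genotypes had the transgene and the interferon stimulus. Cells were sorted 2 weeks later as LSK FLT3- CD48- CD150+ from pooled mice 8 to 16 weeks old (14 Id2+/+, 15 Id2 fl/fl) in 2 experiments. There were 2 libraries of each genotype, labelled A and B, and the labels do not say what a letter marks. The Id2 fl/fl libraries after pIpC are called Id2Δ/Δ below, and the plots label the genotypes WT and ID2KO as in the records. Each library is a pool and each group has 2, so every p-value rests on the spread between pooled libraries within groups, not between mice. That spread was moderated with the spread of all genes tested. When B is set against A, the 2 libraries of a group differ in genotype, so the spread includes the genotype difference. In bulk RNA fewer cells of a type and less RNA per cell cannot be told apart. With 2 libraries in each group, 0.333 is the smallest two-sided p that exact permutation could give.

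Cells respond to unfolded proteins in the cytosol through heat shock factor 1, which binds heat shock elements and turns on HSP70, HSP90 and their J-domain partners. Unfolded proteins in the ER are sensed by IRE1α (encoded by Ern1), ATF6 and PERK (encoded by Eif2ak3). ATF6 and spliced XBP1 raise ER chaperones and degradation genes through ER stress elements, whereas PERK phosphorylates the translation factor eIF2α and so favors synthesis of ATF4, which turns on Ddit3, Trib3, Asns and Ppp1r15a. HSCs make protein slowly and are known to be sensitive to the load of misfolded protein, which is why these genes are of interest in them.

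The values are log2 CPM, a depth-scaled read count, that the authors had normalized between libraries. Recovered depth was 14508611 to 18205459 reads per library. Id2 itself had 93 and 98 reads in the Id2+/+ A and B libraries and 0 reads in both Id2Δ/Δ libraries, where a count of 0 allows up to 3 reads. All 12 HSC markers on the list had a row, with a summed level of 5780 and 5646 CPM in the Id2+/+ A and B libraries and 4193 and 4822 CPM in the Id2Δ/Δ A and B libraries. Their median log2 difference by genotype was -0.21, and none was called. The libraries did not overlap for 6 that were lower, against 15.8% of all genes tested, and for 2 that were higher, against 19.0%. At an unadjusted p under 0.05 (limma), 4 were lower and 0 higher, against 2.95% and 1.72% of all genes tested. The part of this in the genotype differences of the members was not tested. The 12 neutrophil genes summed to 286 and 172 CPM in the Id2+/+ A and B libraries and to 262 and 143 CPM in the Id2Δ/Δ A and B libraries. The 7 megakaryocyte genes measured, some of which HSCs also express, summed to 468 and 526 CPM in Id2+/+ A and B and to 528 and 612 CPM in Id2Δ/Δ A and B. Summed levels were 47.8 to 71.9 CPM for the 8 erythroid genes measured, 50.5 to 59.8 CPM for the 7 macrophage genes, 33.6 to 51.0 CPM for the 2 B-cell genes, 8.35 to 16.4 CPM for the 5 plasma cell genes and 1.38 to 3.40 CPM for the 1 T-cell gene. Of the neutrophil genes, 0 to 2 had 3 reads or fewer in a library. Neutrophil genes were lower in both B libraries than in both A libraries.

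Short upstream stretches are shown first, because the arms of the response are defined by the elements their factors bind. RefSeq windows of 250 bases upstream of the transcript start (GRCm38.p6) were found for 33 of the 40 members. No window was given for Hsf1, Hspa8, Hsp90aa1, Hsp90ab1, Hspa9, Hyou1 and Atf6. The ER stress element was searched on both strands as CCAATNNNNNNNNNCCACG, and 37 of 32851 windows of this length, or 0.113%, held it. It was found in 5 of the 9 ER chaperones with a window and in Syvn1. In the lines below, each shown in the direction of its gene, capitals mark the element, and 5 bases stand on either side. In Hsp90b1, the second copy, and in Creld2 the match was on the opposite strand. The stretches lie at chr2:34772020-34772048 (Hspa5, plus strand), chr10:86705633-86705661 and chr10:86705528-86705556 (Hsp90b1, minus strand), chr14:118937822-118937850 (Dnajc3, plus strand), chr12:17266486-17266514 (Pdia6, plus strand), chr15:88819515-88819543 (Creld2, plus strand) and chr19:6046527-6046555 (Syvn1, plus strand). GENCODE M21 starts Hspa5 at 34771970, so there its stretch lies inside the gene.
Hspa5: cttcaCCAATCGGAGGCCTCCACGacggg
Hsp90b1, first copy: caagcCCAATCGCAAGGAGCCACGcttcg
Hsp90b1, second copy: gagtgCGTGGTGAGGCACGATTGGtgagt
Dnajc3: cacaaCCAATCAGCGCCAACCACGacccg
Pdia6: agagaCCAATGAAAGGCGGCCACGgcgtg
Creld2: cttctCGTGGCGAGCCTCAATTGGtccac
Syvn1: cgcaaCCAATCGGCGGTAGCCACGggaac

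A heat shock element of 3 units was searched on both strands as GAANNTTCNNGAA or TTCNNGAANNTTC, 2 patterns that can overlap, and was held by 153 of 32851 windows, or 0.466%. It was found in none of the 8 cytosolic chaperones with a window, which says only that these letters are not in these windows. It was found in Hspd1 and Hspe1, which are neighbors transcribed in opposite directions, at the same site (chr1:55088054-55088081). Capitals mark 2 overlapping matches, 144 bases upstream of one Hspd1 start and 89 bases upstream of the Hspe1 start. GENCODE M21 starts Hspd1, on the minus strand, at 55088243, so there the site lies inside Hspd1, downstream of that start. The amino acid response element, searched as TGATGNAA on both strands, was in 1134 windows, or 3.45%, and among the members in Herpud1, Asns and Chac1. The XBP1-binding element TGACGTGG was in 185 windows, or 0.563%, and in no member.
Hspd1 (minus strand): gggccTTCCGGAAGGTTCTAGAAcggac
Hspe1 (plus strand): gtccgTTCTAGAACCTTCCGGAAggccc

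Hspa1a and Hspa1b, the 2 inducible HSP70 genes, are near-copies and are shown because much of their sequence is shared, so their values are not independent. Their windows, chr17:34972157-34972406 and chr17:34959239-34959488 on the minus strand, matched at 247 of 250 positions (98.8%), and capitals mark the 3 that differ. Of the 50-base words of the longest Hspa1a transcript, 58.8% were also in Hspa1b, and the reverse share was 62.3%. How the authors assigned such reads is not given in the sources used here.
Hspa1a: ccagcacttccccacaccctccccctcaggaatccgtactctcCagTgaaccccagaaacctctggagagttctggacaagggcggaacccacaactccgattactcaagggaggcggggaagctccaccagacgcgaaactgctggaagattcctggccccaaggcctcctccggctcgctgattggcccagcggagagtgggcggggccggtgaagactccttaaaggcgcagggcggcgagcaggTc
Hspa1b: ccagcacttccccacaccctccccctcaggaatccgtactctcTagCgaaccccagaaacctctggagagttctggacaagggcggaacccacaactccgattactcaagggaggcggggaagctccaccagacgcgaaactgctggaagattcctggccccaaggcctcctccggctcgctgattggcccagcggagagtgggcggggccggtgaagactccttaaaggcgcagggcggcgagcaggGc

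Levels were compared between genes only per length, as CPM per kilobase of the longest transcript. The constitutive cytosolic chaperones Hsp90ab1 and Hspa8 had the highest mean levels, 803 and 589 CPM per kilobase. The ER HSP70 Hspa5 (BiP) followed with 179 and the mitochondrial HSP70 Hspa9 with 149 CPM per kilobase. The inducible genes Hspa1b and Hspa1a were at 11.1 and 3.62 CPM per kilobase. Ppp1r15a, the eIF2α phosphatase subunit GADD34, had the highest level of the ATF4 arm with 118 CPM per kilobase, and Atf4 was at 50.8. Among the regulators, Xbp1 was at 92.6, Hsf1 at 35.4, Ern1 at 15.5, Eif2ak3 at 6.57, Atf6 at 6.38 and Hsf2 at 2.27 CPM per kilobase. Eif2ak3 and Atf6, neighbors in this order, overlapped between libraries. The range of each gene over the 4 libraries is drawn in the plot of levels per transcript length.

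**Figure D1:**
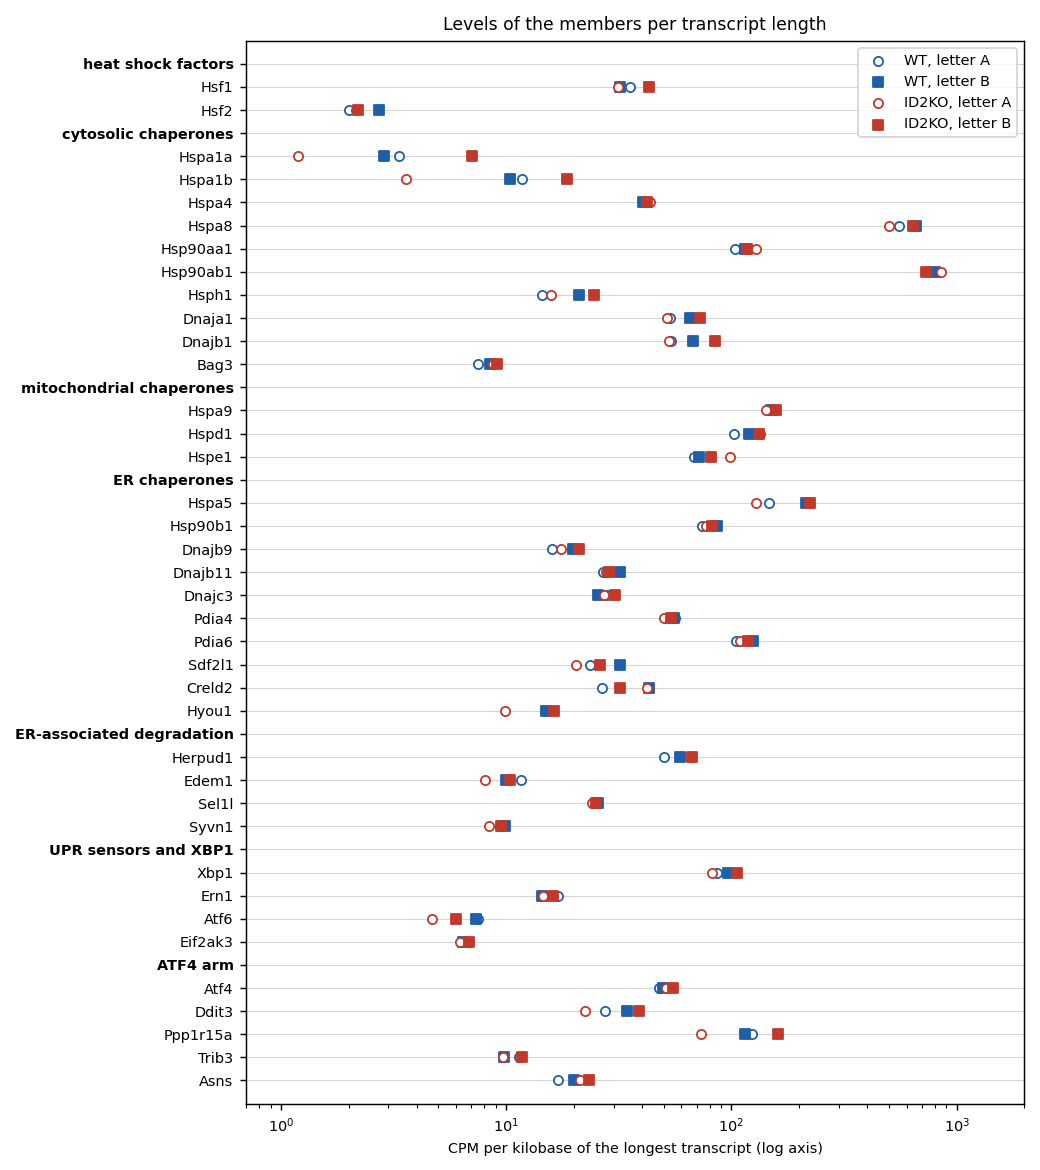
CPM per kilobase of the longest transcript (log axis) for the 38 members with a row, by group, with 1 point per library (open, letter A; filled, letter B; blue, WT; red, ID2KO). Hsp90ab1 and Hspa8 lie highest, with means of 803 and 589, and Hspa1a spreads most among the cytosolic chaperones.

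The first comparison asked whether deletion of Id2 changed these genes. By genotype no member was called at an adjusted p under 0.05, and none of the 15895 genes tested was called (limma, Benjamini-Hochberg, lowest adjusted p = 0.910), so the background is 0%, while 742 genes had an unadjusted p under 0.05. At an unadjusted p under 0.05, 1 of 38 members was higher in Id2Δ/Δ (Hspe1), where 1.72% of all genes were, and 1 was lower (Atf6), where 2.95% were. The libraries did not overlap for 8 members that were higher in Id2Δ/Δ HSCs, against 19.0% of all genes tested, and for 2 that were lower, against 15.8%. The median log2 difference over the 38 members was -0.01, beside 0.01 over all genes. The differences ran from -0.49 to 0.36, with 18 higher and 20 lower in Id2Δ/Δ HSCs.

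**Figure D2:**
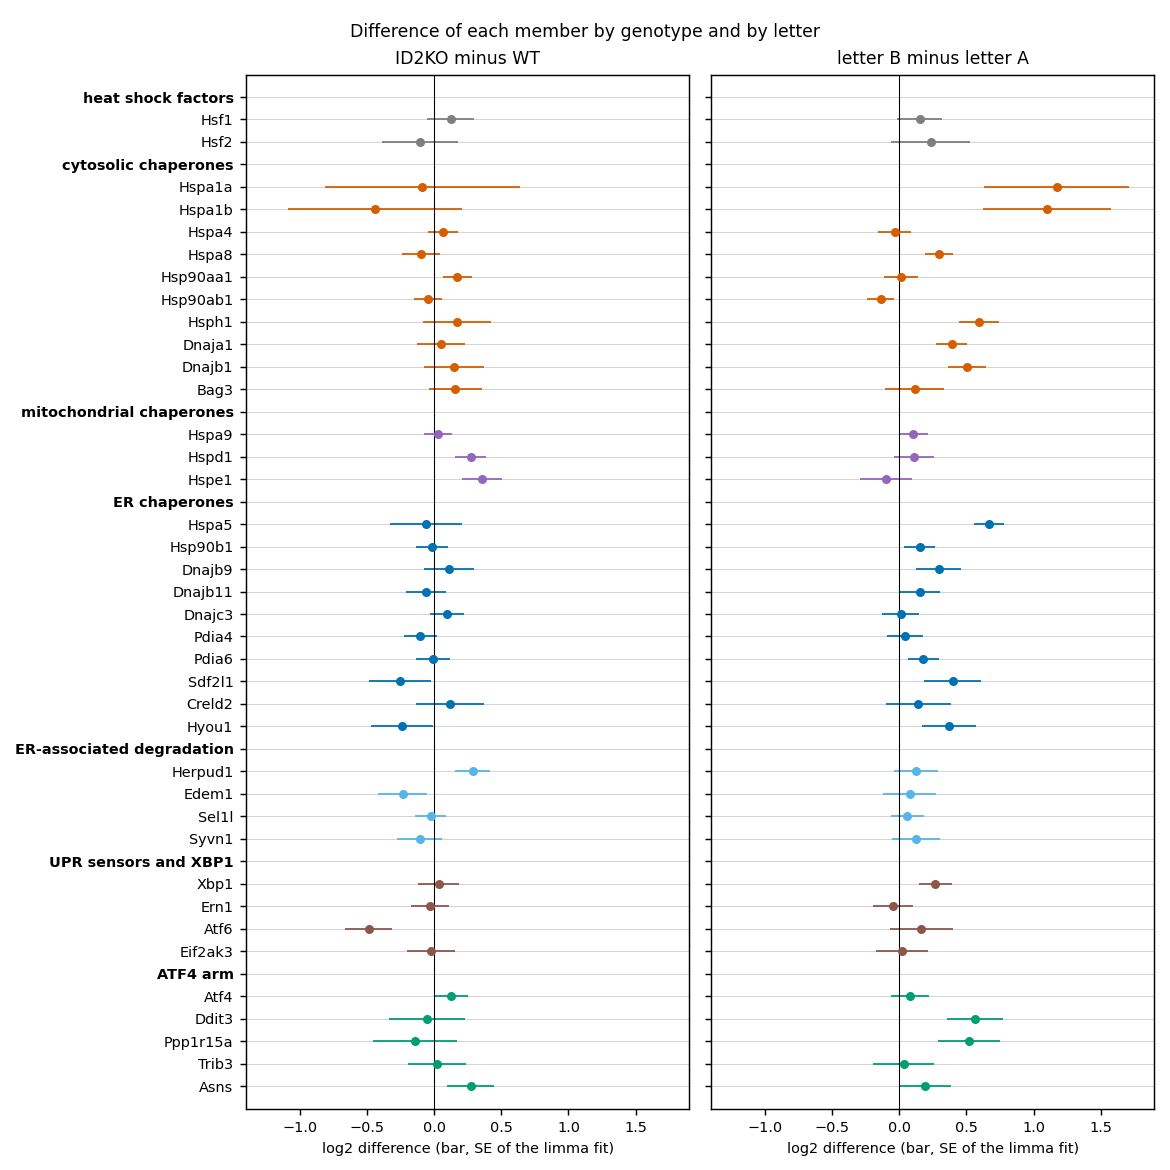
Log2 differences of the 38 members with a row, ID2KO minus WT (left) and letter B minus letter A (right), with bars for the standard error of the limma fit and colors for the groups. By genotype points lie on both sides of 0, from -0.49 to 0.36, and by letter 34 of 38 lie above 0.

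The mitochondrial chaperonin pair and the ER degradation gene Herpud1 had higher values in both Id2Δ/Δ libraries. Hspe1, the co-chaperonin HSP10, was 6.03 and 6.11 in the Id2+/+ A and B libraries and 6.56 and 6.29 in the Id2Δ/Δ A and B libraries (log2 CPM). Its chaperonin partner Hspd1 (HSP60) was 7.95 and 8.18 in Id2+/+ and 8.34 and 8.33 in Id2Δ/Δ, and the groups did not overlap for either gene. The log2 difference was 0.36 (SE 0.15, adjusted p = 0.910) for Hspe1 and 0.27 (SE 0.12, adjusted p = 0.910) for Hspd1. These are the 2 genes that share the heat shock element shown above, and their transcripts overlap on opposite strands, so part of the reads of one may be counted for the other. Hspa9, the third member of the group, differed by 0.03. Herpud1, an ER membrane protein that serves degradation, was 6.62 and 6.84 in Id2+/+ and 7.004 and 7.03 in Id2Δ/Δ, a log2 difference of 0.29 (SE 0.13, adjusted p = 0.910). None of these passed the test, and 19.0% of all genes tested likewise had both Id2Δ/Δ libraries above both Id2+/+ libraries. The other degradation genes Edem1, Syvn1 and Sel1l, of which the last 2 form the ligase core of the pathway, differed by -0.24, -0.11 and -0.02, and their libraries overlapped.

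Among the 10 cytosolic chaperones measured, 6 were higher and 4 lower in Id2Δ/Δ HSCs, with a median log2 difference of 0.06. Hsp90aa1, the inducible HSP90, was 8.41 and 8.56 in Id2+/+ and 8.72 and 8.59 in Id2Δ/Δ libraries (difference 0.17, SE 0.11, adjusted p = 0.910). Bag3, a co-chaperone of HSP70 in selective autophagy, was 4.27 and 4.45 in Id2+/+ and 4.49 and 4.54 in Id2Δ/Δ. Hspa4, an HSP70 nucleotide exchange factor, was 7.57 and 7.55 in Id2+/+ and 7.65 and 7.60 in Id2Δ/Δ. These 3 of 10 were the cytosolic chaperones whose libraries did not overlap by genotype, against 19.0% of all genes tested on the higher side. All were within 0.17 on the log2 scale. Hsp90ab1, the constitutive HSP90, was 11.02 and 10.98 in Id2+/+ and 11.08 and 10.84 in Id2Δ/Δ. Hspa8, the constitutive HSC70, was 10.78 and 11.02 in Id2+/+ and 10.63 and 10.98 in Id2Δ/Δ, so neither abundant chaperone separated the genotypes.

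The inducible HSP70 genes differed between the Id2Δ/Δ libraries more than between the genotypes. Hspa1a was 3.31 and 3.08 in Id2+/+ A and B, 1.82 in Id2Δ/Δ A and 4.39 in Id2Δ/Δ B. Hspa1b was 5.05 and 4.87 in Id2+/+ A and B, 3.33 in Id2Δ/Δ A and 5.71 in Id2Δ/Δ B. The 2 Id2Δ/Δ libraries lay on either side of both Id2+/+ libraries for each gene, so the group difference was -0.09 (SE 0.72) for Hspa1a and -0.44 (SE 0.65) for Hspa1b. The difference within letter A was -1.49 for Hspa1a and -1.72 for Hspa1b, and within letter B it was 1.31 and 0.84.

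The 10 ER chaperones had a median log2 difference of -0.04 by genotype, with 3 higher and 7 lower. Hspa5, the master ER chaperone, was 9.08 and 9.62 in Id2+/+ A and B and 8.89 and 9.69 in Id2Δ/Δ A and B, a difference of -0.06 (SE 0.27, adjusted p = 0.977). Hsp90b1 (GRP94), the ER HSP90, was 7.90 and 8.12 in Id2+/+ and 7.96 and 8.04 in Id2Δ/Δ. Pdia4, a protein disulfide isomerase, was 7.08 and 7.05 in Id2+/+ and 6.91 and 7.02 in Id2Δ/Δ, a difference of -0.10 (SE 0.12, adjusted p = 0.924). It was the 1 ER chaperone of 10 whose genotypes did not overlap, where 15.8% of all genes tested were lower without overlap. The 5 ER chaperones with the element shown above (Hspa5, Hsp90b1, Dnajc3, Pdia6 and Creld2) were at -0.06, -0.02, 0.10, -0.01 and 0.12 in the same order.

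Of the sensors and factors of the response, Atf6 (ENSMUSG00000026663.6, chr1:170704674-170867771 of GRCm38 in GENCODE M21) had the lowest log2 difference in Id2Δ/Δ HSCs. It was 5.76 and 5.74 in the Id2+/+ A and B libraries and 5.09 and 5.44 in the Id2Δ/Δ A and B libraries, which did not overlap. The log2 difference was -0.49 (SE 0.18, adjusted p = 0.910), and it was -0.32 without Id2Δ/Δ A, -0.66 without Id2Δ/Δ B and -0.38 after a correction for transcript length. Ern1 was 6.89 and 6.64 in Id2+/+ and 6.66 and 6.81 in Id2Δ/Δ, and Eif2ak3 was 4.95 and 4.86 in Id2+/+ and 4.81 and 4.95 in Id2Δ/Δ. Xbp1, whose spliced form is the IRE1α product, was 7.52 and 7.68 in Id2+/+ and 7.44 and 7.82 in Id2Δ/Δ. Hsf1 was 6.80 and 6.64 in Id2+/+ and 6.62 and 7.07 in Id2Δ/Δ, and Hsf2 was 3.18 and 3.63 in Id2+/+ and 3.29 and 3.31 in Id2Δ/Δ. Apart from Atf6, these 5 differed by 0.12 or less by genotype, and their libraries overlapped.

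The 5 measured genes of the ATF4 arm had a median log2 difference of 0.02 by genotype, with 3 higher and 2 lower. Atf4 was 6.59 and 6.64 in Id2+/+ and 6.69 and 6.79 in Id2Δ/Δ, a difference of 0.12 (SE 0.13, adjusted p = 0.917). Asns, asparagine synthetase, was 5.09 and 5.34 in Id2+/+ and 5.42 and 5.55 in Id2Δ/Δ, a difference of 0.27 (SE 0.17, adjusted p = 0.910). In both genes the Id2Δ/Δ libraries lay above the Id2+/+ libraries, as in 19.0% of all genes tested, and neither passed the test. The other 3, Ddit3 (CHOP), Ppp1r15a and Trib3, differed by -0.05, -0.14 and 0.02.

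The second comparison set the B libraries against the A libraries across both genotypes. Here too no member was called at an adjusted p under 0.05, whereas 17 of 15895 genes were, or 0.107%. At an unadjusted p under 0.05, 7 of 38 members were higher in B, against 2.93% of all genes, and 0 were lower, against 2.07%. The libraries did not overlap for 17 members higher in B, against 16.1% of all genes tested, and for 1 lower in B, against 16.8%. In all, 34 of 38 were higher in B, with a median log2 difference of 0.15 beside -0.01 over all genes. The median was 0.34 in the cytosolic chaperones (0.17 within Id2+/+, 0.42 within Id2Δ/Δ), 0.17 in the ER chaperones (0.25 and 0.13) and 0.19 in the ATF4 arm (0.0573 and 0.28). Within each genotype, 21 of 38 members were higher in B in both, 2 were lower in both and 15 differed in direction, beside 3799, 4144 and 7796 of all 15895 genes.

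**Figure D3:**
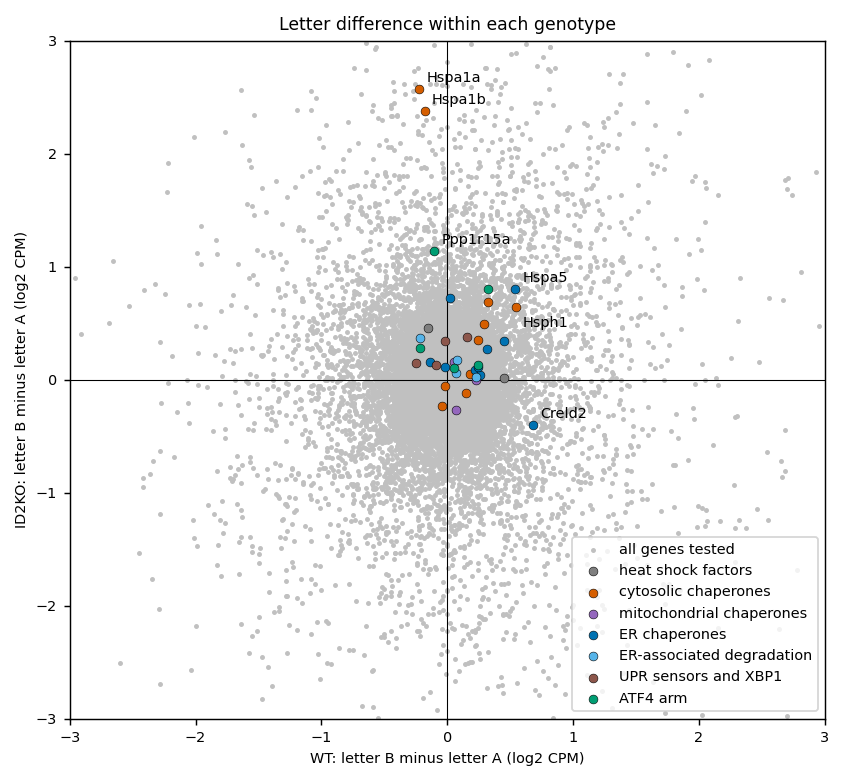
Letter B minus letter A (log2 CPM) in WT (horizontal) and in ID2KO (vertical) for the 38 members, colored by group, over all genes tested in gray, with 280 genes beyond 3 on either axis not drawn. Hspa5 and Hsph1 lie in the upper right, and Hspa1a, Hspa1b and Ppp1r15a lie high on the vertical axis but near 0 on the horizontal.

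Hspa5 (ENSMUSG00000026864.13, chr2:34771970-34777547 of GRCm38 in GENCODE M21) had the smallest p-value of the members by letter. Its level was 9.08 and 8.89 in the A libraries (Id2+/+, Id2Δ/Δ) and 9.62 and 9.69 in the B libraries, which did not overlap. The log2 difference was 0.67 (SE 0.11, a fold of 1.59, adjusted p = 0.113), and it was 0.54 within Id2+/+ and 0.80 within Id2Δ/Δ. The adjusted p was 0.0497 when the test was limited to genes averaging 10 CPM or more, and ran from 0.0302 to 1.00 over the alternatives tried (limma, Benjamini-Hochberg). Among the other ER chaperones, Sdf2l1, an ER cofactor of BiP, was 4.70 and 4.50 in A and 5.16 and 4.85 in B (difference 0.40, SE 0.21, adjusted p = 0.960). Hyou1, the ER HSP110, was 6.19 and 5.60 in A and 6.21 and 6.33 in B (difference 0.37, SE 0.20, adjusted p = 0.960). The letter difference of Hyou1 was 0.02 within Id2+/+ and 0.73 within Id2Δ/Δ. Dnajb9, an ER J-domain protein, differed by 0.29 (SE 0.17). All 10 ER chaperones had a letter difference above 0, and 7 of 10 did not overlap, against 16.1% of all genes tested. The other 3 were lower in B within one genotype, with Creld2 at -0.40 within Id2Δ/Δ and Dnajc3 and Pdia4 at -0.13 and -0.02 within Id2+/+. The differences of Hsp90b1, Dnajb11, Dnajc3, Pdia4, Pdia6 and Creld2 were 0.18 or less. Of the 5 with the ER stress element, Hspa5 was at 0.67, while Hsp90b1, Dnajc3, Pdia6 and Creld2 were at 0.15, 0.01, 0.18 and 0.14.

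In the cytosolic group, Hspa8, Hsph1, Dnajb1 and Dnaja1 had higher values in both B libraries, though none passed the test. Hsph1, an HSP110 exchange factor for HSP70, was 6.11 and 6.23 in A and 6.65 and 6.87 in B, a log2 difference of 0.59 (SE 0.15, adjusted p = 0.641). Dnajb1, the J-domain protein HSP40, was 7.34 and 7.30 in A and 7.66 and 7.99 in B, a difference of 0.50 (SE 0.14, adjusted p = 0.883). Dnaja1, another HSP40, was 8.23 and 8.18 in A and 8.52 and 8.67 in B, a difference of 0.39 (SE 0.11, adjusted p = 0.913). For these 3 both B libraries lay above both A libraries, as for 16.1% of all genes tested. B was thus above A within each genotype, where each letter has 1 library. Hspa8 did the same, with a difference of 0.30 (SE 0.10, adjusted p = 0.960). Hspa1b and Hspa1a had the largest differences, 1.10 (SE 0.48) and 1.17 (SE 0.54), but these came from Id2Δ/Δ, where B was above A by 2.38 and 2.57, while in Id2+/+ B was -0.18 and -0.23 relative to A. The HSP90 genes had smaller differences, with Hsp90ab1 lower in both B libraries (-0.14, SE 0.10, adjusted p = 0.975) and Hsp90aa1 at 0.01. The HSP70 exchange factor Hspa4 was at -0.03 and the cochaperone Bag3 at 0.11, and the libraries of both overlapped. Without Hspa1a and Hspa1b the median of the group was 0.21.

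In the ATF4 arm the largest letter differences were those of Ddit3 and Ppp1r15a. The libraries did not overlap for 1 of the 5 genes, Ddit3, against 16.1% of all genes tested. They overlapped for Ppp1r15a, Asns, Trib3 and Atf4 itself. Ddit3, the proapoptotic factor CHOP, was 4.73 and 4.44 in A and 5.06 and 5.24 in B, a log2 difference of 0.56 (SE 0.21, adjusted p = 0.960). Ppp1r15a was 8.44 and 7.68 in A and 8.34 and 8.82 in B, a difference of 0.52 (SE 0.23, adjusted p = 0.960) that was -0.10 within Id2+/+ and 1.14 within Id2Δ/Δ. Asns, Atf4 and Trib3 differed by 0.19, 0.08 and 0.03. Xbp1 was 7.52 and 7.44 in A and 7.68 and 7.82 in B (0.27, SE 0.13, adjusted p = 0.960), and Atf6, Ern1 and Eif2ak3 differed by 0.16, -0.05 and 0.02. Hsf2 and Hsf1 differed by 0.23 and 0.15. The degradation genes Herpud1, Syvn1, Edem1 and Sel1l differed by 0.13, 0.13, 0.08 and 0.06, and the mitochondrial Hspd1, Hspa9 and Hspe1 by 0.11, 0.10 and -0.10.

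**Figure D4:**
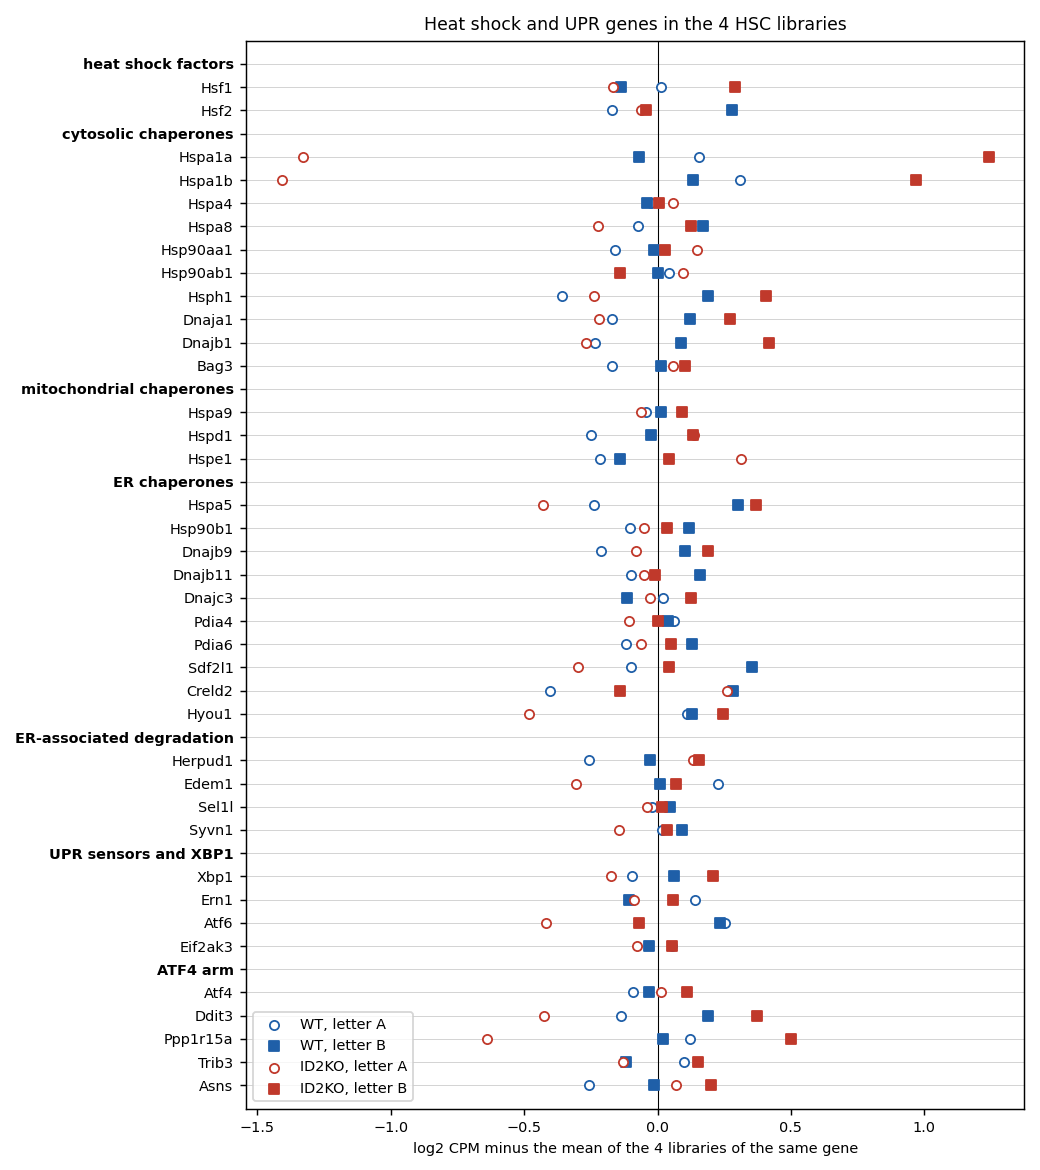
Log2 CPM of each of the 38 members in the 4 libraries minus the mean of the same gene, by group (open, letter A; filled, letter B; blue, WT; red, ID2KO). Filled points lie to the right of open points for Hspa5, Hsph1, Dnajb1, Dnaja1, Hspa8 and Ddit3.

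Genes outside the members also differed between the A and B libraries. Of the 14 immediate early response genes tested, 13 had B above A in both genotypes, beside 3799 of all 15895 genes. At an adjusted p under 0.05, 9 of the 14 were called (limma, Benjamini-Hochberg), against 0.107% of all genes. Among these were Jun, Fos and Nr4a1, which are transcription factors induced within minutes of a stimulus. The summed level of the 16 on the list was 3635 and 3303 CPM in the A libraries and 7805 and 10350 CPM in the B libraries. All 9 neutrophil genes tested were lower in B without overlap, against 16.8% of all genes tested, with a median log2 difference of -1.74. The part of either in the letter differences of the chaperones was not tested.

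**Figure D5:**
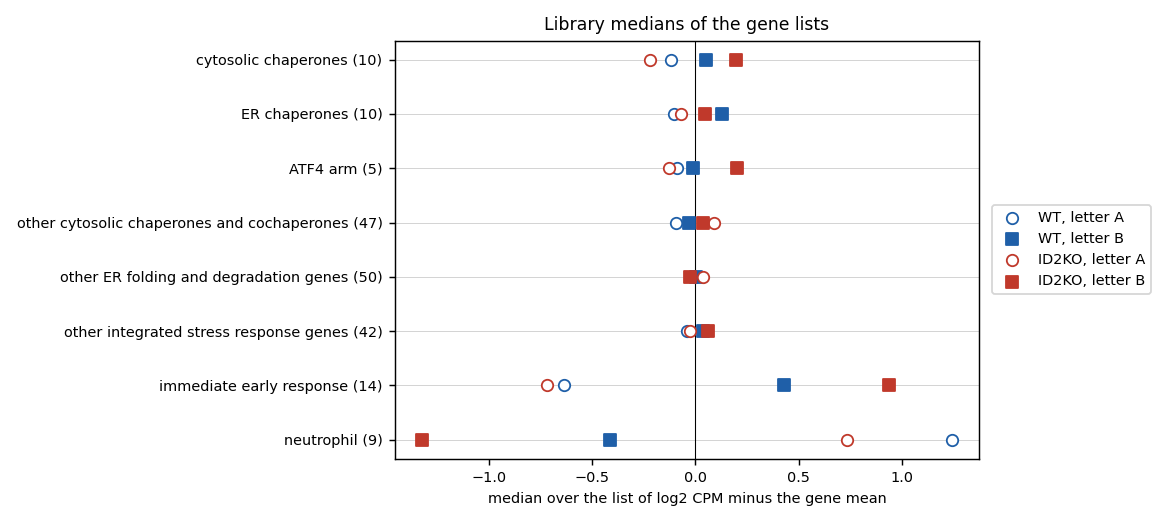
Median over each list of log2 CPM minus the gene mean, in each library, with the number of genes tested in parentheses (open, letter A; filled, letter B; blue, WT; red, ID2KO). Filled points lie right of open points in the 3 main groups and in the immediate early response, and left of them in the neutrophil list.

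Lists of related genes outside the members were read the same way. The list of other cytosolic chaperones and cochaperones also held genes of mitochondrial proteins (Trap1, Grpel1, Clpb, Clpp, Lonp1 and Dnaja3). Of the 47 genes tested on this mixed list, 40 were higher and 7 lower in Id2Δ/Δ HSCs, with a median log2 difference of 0.11. None was called, and the libraries did not overlap for 21 of the 47 on the higher side, against 19.0% of all genes, and for 3 on the lower side, against 15.8%. The largest nonoverlapping differences were 1.29 for Hspb8, a small heat shock protein, 0.57 for Hspa2, an HSP70, and -0.46 for Hspb6, another small heat shock protein, each at an adjusted p of 0.910 (limma, Benjamini-Hochberg). By letter the same list had a median of 0.01, with 27 higher, 20 lower and none called, and Dnajb2, Stub1 and Cct6a differed by 0.43, 0.15 and 0.11. The 50 other ER folding and degradation genes had a median of 0.00 by genotype, with 25 higher, 25 lower and none called. Edem3, a mannosidase-like gene of ER degradation, was 5.68 and 5.70 in Id2+/+ and 4.67 and 5.22 in Id2Δ/Δ (difference -0.74, SE 0.21, adjusted p = 0.910), and Derl3 and Spcs1 differed by -1.60 and 0.33. By letter the list had a median of 0.00 and no call, with Derl2, Ero1lb and Faf2 at 0.47, -0.44 and -0.38. The 42 other integrated stress response genes had a median of 0.03 by genotype and no call, with Sesn2, Ppp1r15b and Psat1 at 0.41, -0.31 and 0.22. By letter they had a median of 0.08 and 1 call, Atf3, a stress-induced factor that was 0.52 and -0.69 in A and 4.33 and 3.91 in B (difference 4.20, SE 0.51, adjusted p = 0.0203). Gdf15 and Gpt2 of this list differed by 3.33 and 1.63 and did not pass the test.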

How the data were processed

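Bulk RNA-Seq of sorted HSCs gave 4 libraries, 2 Id2+/+ and 2 Id2Δ/Δ. The authors deposited 1 table of log2 CPM values for 19354 genes. Taken back from log2, the columns sum to between 999980 and 999996 CPM. When each column was sorted, the values at the same rank lay within 0.1 of each other for 88.4% of ranks, so the values were quantile-normalized before deposit, which removes library-wide shifts. The submitters' processing notes name CASAVA 1.8.4, Trimmomatic 0.30, TopHat2 2.0.8, RSEM and STAR, with builds mm9 and NCBIM37, and no roles. Strand use is not given in the sources used here. Values of genes that overlap on opposite strands are therefore uncertain, such as Hspd1 with Hspe1, Ddit3 with Mars and Ppp1r15a with Tulp2. Dnaja1 with Smu1, Syvn1 with Mrpl49, Pdia6 with Atp6v1c2, Hsp90b1 with 1810014B01Rik, Eif2ak3 with Gm43292 and Hspa1a with Gm20481 overlap likewise. Values of genes that share sequence (Hspa1a with Hspa1b, Hspa8, Hsp90aa1, Hspd1, Dnaja1) are uncertain too. Gene identifiers matched GENCODE M21 on GRCm38 for 99.7%.

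Reads below 32 CPM (62.1% of values) were recovered from the ranks of distinct values, and depth from them. Since higher values keep no reads, no count model was run. The 15895 genes averaging 1 CPM or more entered limma (version 3.58.1, R 4.3.3), with lmFit and eBayes using an intensity trend and either genotype or letter in the model. P-values were two-sided with Benjamini-Hochberg adjustment, no pseudocount was added, and calls were made at an adjusted p under 0.05. The code was tested on simulated data. Values of every library were given for members called in either comparison, for the regulators, and, in each of the 3 main groups, for the 2 with the highest mean and the 3 with the largest difference among nonoverlapping libraries. Hspe1, Hspd1, Herpud1, Hspa1a and Hspa1b were added after their values were seen. In each other list the rule named the 3 largest nonoverlapping differences. The members, groups and lists were chosen with earlier results of these data known. Alternatives varied the pseudocount, filter, scaling, trend, length correction, libraries, threshold and replicate block, and 1 that left out Hspa1a and Hspa1b was chosen after seeing the data. Promoter windows were those of RefSeq on GRCm38.p6.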

Additional observations from a re-analysis of the deposited data

Results flagged for a closer look

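In 4 members the genotype difference had opposite signs in the A and the B libraries, by at least 0.3 on the log2 scale in each; 1647 of the 15895 genes tested (10.4%) did so. With 1 library of each genotype per letter, the difference between letters was not tested. Hspa1a was -1.49 in A and 1.31 in B, and its near-copy Hspa1b was -1.72 in A and 0.84 in B, so these 2 are not independent. Ppp1r15a was -0.76 in A and 0.48 in B. Creld2, an ER chaperone with an ER stress element, ran the other way, at 0.66 in A and -0.42 in B.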

How the results depend on the processing

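The number of genes called by genotype was 0 and became 1 with the replicate block, with and without the length correction, and 742 at an unadjusted p under 0.05. The number called by letter was 17 and became 4 without a filter, 26 with a filter at 10 CPM, 0 with no intensity trend, 30 with the replicate block, 35 with the block and the length correction, 794 at an unadjusted p under 0.05, and 0 to 2 when 1 library was left out (2 without Id2+/+ B, 0 when any other library was left out). Hspa5 was the 1 member called by letter at an adjusted p under 0.05 in any alternative. Its adjusted p was 0.0497 with the 10 CPM filter and 0.0302 with the block and the length correction (limma, Benjamini-Hochberg). It was 0.0535 or more under the others.

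By genotype, the cytosolic chaperones had a median of -0.17 (without Id2Δ/Δ B) to 0.24 (without Id2Δ/Δ A) when 1 library was left out, and the ATF4 arm of -0.12 to 0.34 (the same libraries), with -0.23 within letter A and 0.21 within letter B. By letter, the cytosolic chaperones were 0.17 within Id2+/+, 0.42 within Id2Δ/Δ, 0.21 without Hspa1a and Hspa1b, and 0.23 (without Id2Δ/Δ A) to 0.39 (without Id2+/+ A) when 1 library was left out. The ER chaperones were 0.25 within Id2+/+, 0.13 within Id2Δ/Δ and 0.14 to 0.24 (without Id2Δ/Δ B) when 1 library was left out, and the ATF4 arm was 0.0573 within Id2+/+ and 0.28 within Id2Δ/Δ. The sign of the genotype difference was kept by 33 of 38 members under alternatives with all 4 libraries and by 14 of 38 when 1 library was left out. For the letter difference these numbers were 35 and 24. The labels do not say whether a letter pairs the samples. The correlation of same-letter deviations from the genotype means was 0.06 over all genes tested and 0.14 over the 7332 with a mean log2 above 5. Each group has 2 libraries, which limits the precision of every value.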
